A study of Mus musculus with 15 samples.

Results

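MHC class I molecules display peptides from inside the cell to CD8+ T cells, and the 10 genes described here encode the parts of that pathway that interferon raises together. They were chosen by symbol from the 55849 gene rows of the table, and each of the 10 symbols matched 1 row. H2-K1 and H2-D1 encode the classical class I heavy chains and B2m the light chain, beta-2 microglobulin. Tap1 and Tap2 form the transporter that moves peptides into the endoplasmic reticulum, and Tapbp encodes tapasin, which holds the empty class I molecule at that transporter. Psmb8, Psmb9 and Psmb10 encode the catalytic subunits of the immunoproteasome, which take the places of Psmb5, Psmb6 and Psmb7 in newly built proteasomes. Nlrc5 encodes the transactivator that binds class I promoters through their S, X and Y elements. Hepatocytes carry little class I protein at rest compared with immune and endothelial cells, and interferon-gamma raises it in part through the transcription factor IRF1.

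Liver RNA of mice was sequenced in 15 libraries, 5 from mice given KSL0608-Se and irradiation, 5 from aged control mice and 5 from young control mice, called treated, aged and young livers from here on. KSL0608-Se is a code name, and the series is titled for senolysis, the killing of senescent cells, that light switches on. The labels give no strain, sex, age, dose or light setting, and no age for the treated mice. Whether the 5 libraries of a group are 5 animals is not stated either, and p-values then cover only library-to-library spread, some of which may be technical. Expression is given in TPM, the usual scaled share of all transcripts after correction for transcript length, so levels can be compared between genes. Sequencing depth is unknown, because TPM does not keep it. All 10 genes averaged 1 TPM or more and entered the tests, as did 12168 genes in all. The libraries carried liver RNA, with 10 hepatocyte markers such as albumin summing to between 91110.5 and 127916 TPM in treated livers, between 92885 and 126906 TPM in aged livers and between 116918 and 161891 TPM in young livers.

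The stretches upstream of 6 of these genes are shown, that of Psmb9 and Tap1 because it is common to the pair of genes whose levels ran most closely together, that of Psmb8 for its differences from young livers, and those of H2-K1, H2-D1 and B2m as the class I chains. RefSeq's table for build GRCm38.p6 gave an upstream window for 8 of the 10 genes, Tap2 and Nlrc5 not among them. The deposited values were made on GRCm39, so these coordinates belong to the RefSeq table only. Psmb9 and Tap1 lie head to head on chromosome 17, with 225 bases between their starts. Sequences read 5′ to 3′ on the strand of the gene and end at the base before its start. The Psmb9 and Tap1 stretch is at chr17:34187331-34187555, plus strand, the strand of Tap1. The others are the 200 bases before the start, for Psmb8 at chr17:34197995-34198194 (plus strand), for H2-K1 at chr17:34000348-34000547 (minus), for H2-D1 at chr17:35262894-35263093 (plus) and for B2m at chr2:122147487-122147686 (plus). Capitals mark every match, on either strand, to GAAA, any 2 bases and GAAA (an interferon-stimulated response element), to TTC, any 3 bases and GAA (a gamma-activated site), to GGG, any 2 bases, T, any 2 bases and CC (an NF-kB site), to CCAAT (a Y box) or to TGACG (the CRE half-site found in X2 boxes).
Psmb9 and Tap1: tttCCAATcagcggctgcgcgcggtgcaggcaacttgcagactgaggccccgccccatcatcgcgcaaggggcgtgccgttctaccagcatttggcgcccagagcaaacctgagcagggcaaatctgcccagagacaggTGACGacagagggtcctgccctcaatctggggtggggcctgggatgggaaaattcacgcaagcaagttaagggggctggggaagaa
Psmb8: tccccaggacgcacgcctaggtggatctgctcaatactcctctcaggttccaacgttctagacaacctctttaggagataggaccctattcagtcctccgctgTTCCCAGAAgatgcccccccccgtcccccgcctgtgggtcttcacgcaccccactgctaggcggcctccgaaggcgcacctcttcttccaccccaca
H2-K1: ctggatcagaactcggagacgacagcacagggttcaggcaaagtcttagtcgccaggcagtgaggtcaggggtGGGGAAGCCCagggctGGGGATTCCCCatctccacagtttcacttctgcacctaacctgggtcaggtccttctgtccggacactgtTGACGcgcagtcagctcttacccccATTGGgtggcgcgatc
H2-D1: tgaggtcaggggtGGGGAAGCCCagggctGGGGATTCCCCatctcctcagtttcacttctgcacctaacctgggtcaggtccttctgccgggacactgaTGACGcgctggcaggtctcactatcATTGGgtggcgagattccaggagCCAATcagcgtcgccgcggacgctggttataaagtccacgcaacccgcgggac
B2m: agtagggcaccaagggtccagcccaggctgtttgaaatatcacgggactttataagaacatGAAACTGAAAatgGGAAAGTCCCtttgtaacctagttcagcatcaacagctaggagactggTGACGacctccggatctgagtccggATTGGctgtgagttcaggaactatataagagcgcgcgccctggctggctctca

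H2-K1 and H2-D1 both held an overlapping pair of NF-kB matches and a further one upstream of it, the CRE half-site and CCAAT. In its window of 250 bases H2-K1 also held another NF-kB match, gggtctctcc, from 227 to 218 bases before its start, beyond the stretch shown. RefSeq gives H2-K1 a second start just downstream, and the window of the upstream start is shown. B2m held matches to the NF-kB letters, the CRE half-site and CCAAT. Its window was the only one among the 8 genes to match the exact interferon letters searched, written gaaactgaaa there. Interferon elements that depart from those letters would not be counted, so the other windows cannot be said to lack one. Psmb8 held 1 match to the gamma-activated site, ttcccagaa, from 97 to 89 bases before its start, and none of the other 4 kinds. The stretch between Psmb9 and Tap1 held a CCAAT box close to Psmb9 and 1 CRE half-site. Of the windows not shown, Tapbp held 2 CCAAT matches and no other kind, and Psmb10 held no match to any of the 5 kinds, so no kind was found in all 8 genes. Over all 32851 windows of 250 bases in the table, 2.98% held the interferon element, 7.02% the gamma-activated site, 15.9% the NF-kB letters, 33.8% a CCAAT box and 17.8% the CRE half-site. A match of letters is a description of these windows and does not show that a factor binds there.

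The class I chains were far more abundant than the machinery that feeds them. B2m, H2-K1 and H2-D1 came first, in that order, in all 15 libraries, at means over the 15 of 3202, 2208 and 647 TPM. The immunoproteasome and tapasin genes followed, with Psmb8 at 72.0, Tapbp at 66.9 and Psmb10 at 59.5 TPM, then Psmb9 at 34.7, Tap2 at 19.5 and Tap1 at 18.4 TPM. Nlrc5 was lowest in every library, at a mean of 5.52 TPM. Neighbours in the middle of this order changed places. Psmb8 exceeded Tapbp in 5 of 5 treated and 4 of 5 aged libraries and in 0 of 5 young libraries, and Tap2 exceeded Tap1 in 3 of 5 treated, 4 of 5 aged and 5 of 5 young libraries. Together the 10 genes took between 0.451% and 0.819% of all transcripts in treated livers, between 0.543% and 0.736% in aged livers and between 0.485% and 0.694% in young livers, so the 3 groups overlapped.

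None of the 10 genes passed the test in any of the 3 comparisons. The test was limma on log2(TPM + 1) over all 12168 genes, with p-values adjusted by the Benjamini-Hochberg method and genes called at an adjusted p under 0.05. Between treated and aged livers 0 of 10 were called, where 0.00822% of all genes were, all higher. Between aged and young livers 0 of 10 were called against 1.08% of all genes (0.929% higher and 0.156% lower), and between treated and young livers 0 of 10 against 2.91% (2.18% higher and 0.731% lower). With an unadjusted p under 0.05 the counts were 0, 1 and 1 of 10, beside 4.41%, 8.72% and 17.8% of all genes. In no comparison did the groups lie wholly apart for any of the 10, as they did for 0.69%, 3.38% and 4.09% of all genes. The median log2 difference of the 10 genes was 0.12 between treated and aged livers, 0.11 between aged and young livers and 0.28 between treated and young livers, beside 0.00, 0.05 and 0.06 over all genes. Single libraries moved these medians, from 0.03 without treated 2 to 0.34 without treated 1 for treated against aged livers, from 0.03 without aged 5 to 0.17 without young 3 for aged against young livers, and from 0.18 without treated 2 to 0.46 without treated 1 for treated against young livers. The last 2 comparisons share the young libraries, and the first and last share the treated ones.

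**Figure D1:**
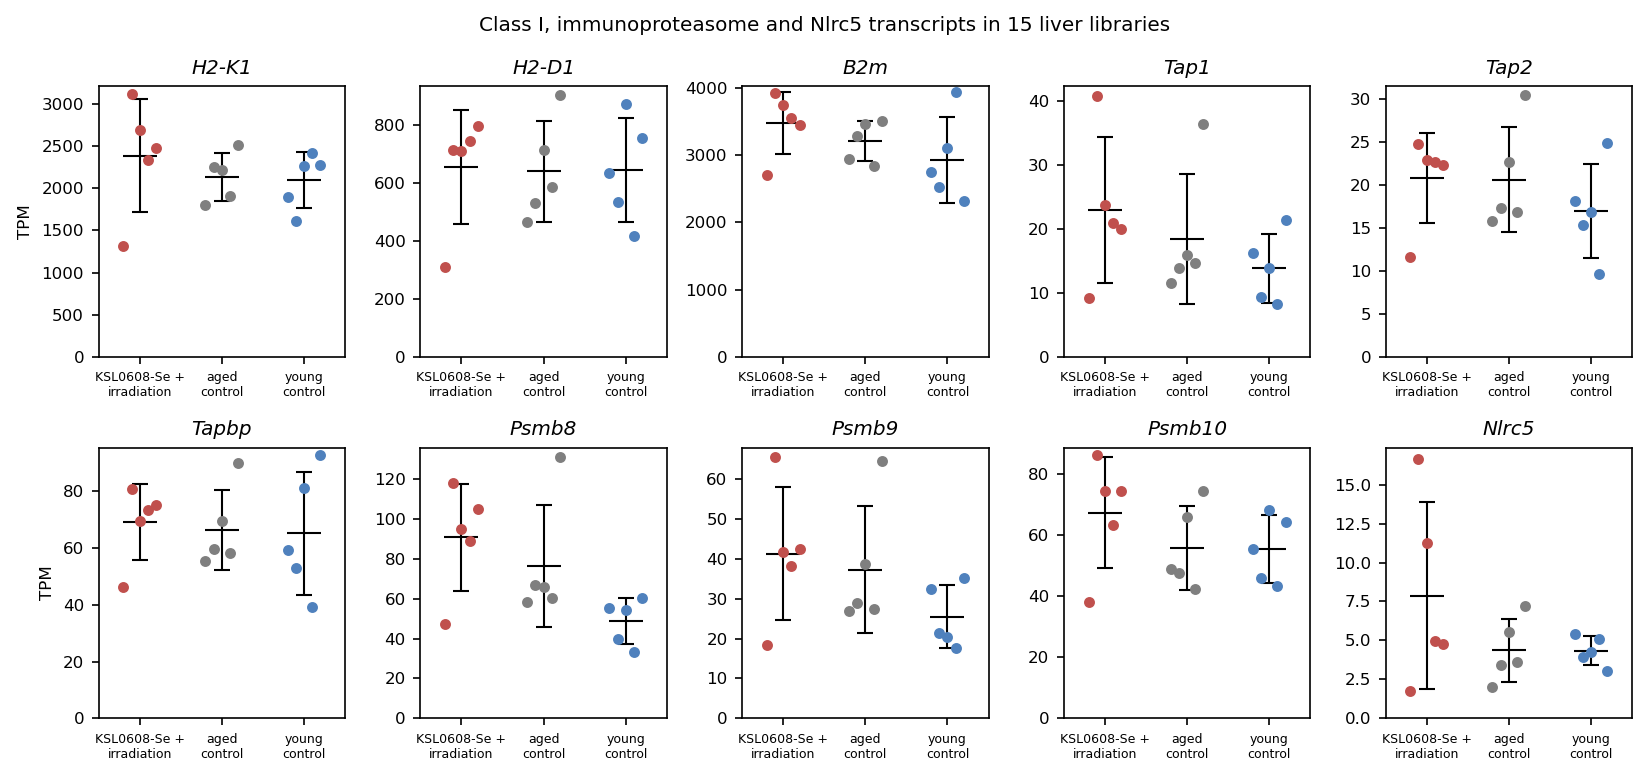
Level of each of the 10 genes in TPM (vertical axis, from 0) in every library of treated, aged and young livers, with points for libraries 1 to 5 from left to right in each group and black bars for the mean and SD. Treated 1 is the lowest treated library for all 10 genes and aged 5 the highest aged library for all 10, and the groups overlap in every panel.

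The classical heavy chains differed little between the group means. H2-K1 stood at 1317, 3125, 2693, 2336.5 and 2474.5 TPM in treated libraries 1 to 5, at 1802, 2254, 2216, 1905 and 2515 TPM in aged libraries and at 1902, 1610, 2270, 2421 and 2274 TPM in young libraries. Treated 1 was below every other library, and the other treated libraries reached from inside the range of the controls to above it. The log2 difference was 0.11 between treated and aged livers (95% interval −0.31 to 0.54, limma adjusted p = 0.956) and 0.03 between aged and young livers (−0.39 to 0.46). H2-D1 averaged 656 ± 196 TPM in treated, 640 ± 174 TPM in aged and 644 ± 180 TPM in young livers (SD, n = 5 each). Its log2 difference was 0.00 in each of the 3 comparisons, with intervals from −0.56 to 0.56. H2-K1 and H2-D1 values are less certain than the others, because 8.11% and 14.3% of the 50-base stretches of their longest GENCODE M21 transcripts also occur in transcripts of other genes, among them each other, H2-Q1 and H2-Q7. These genes are also highly polymorphic between mouse strains. The strain is not stated, and its effect on mapping was not tested.

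B2m, the light chain shared by all class I molecules, varied least. It stood at 2709, 3916, 3751, 3551 and 3445 TPM in treated libraries, at 2946, 3285, 3469, 2836 and 3502 TPM in aged libraries and at 2755, 2518, 3100.0, 3944 and 2311 TPM in young libraries. Its highest and lowest libraries were 1.71-fold apart, both of them young. The log2 difference was 0.11 between treated and aged livers (interval −0.21 to 0.43), 0.15 between aged and young livers (−0.17 to 0.48) and 0.26 between treated and young livers (−0.06 to 0.59, limma adjusted p = 0.394). No 50-base stretch of the B2m transcript occurred in another gene.

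The peptide transporter and tapasin varied more between libraries than between groups. Tap1 stood at 9.23, 40.69, 23.78, 20.97 and 19.99 TPM in treated libraries, at 11.5, 13.9, 15.9, 14.6 and 36.4 TPM in aged libraries and at 16.3, 9.28, 13.9, 8.27 and 21.4 TPM in young libraries. Treated 2 and aged 5 were the 2 highest libraries, while treated 1 lay among the lowest with young 2 and young 4. The log2 difference of Tap1 was 0.28 between treated and aged livers (interval −0.48 to 1.04), 0.35 between aged and young livers (−0.41 to 1.11) and 0.63 between treated and young livers (−0.13 to 1.39, limma adjusted p = 0.384). Leaving out 1 library, the Tap1 difference ranged from 0.05 (without treated 2) to 0.55 (without treated 1) for treated against aged livers, from 0.08 (without aged 5) to 0.52 (without young 5) for aged against young livers, and from 0.39 to 0.90 for treated against young livers. Tap2 averaged 20.8 ± 5.25 TPM in treated, 20.6 ± 6.12 TPM in aged and 17.0 ± 5.50 TPM in young livers (SD, n = 5 each). Tapbp averaged 69.1 ± 13.3 TPM in treated, 66.5 ± 14.1 TPM in aged and 65.1 ± 21.6 TPM in young livers, and its log2 difference between aged and young livers was 0.07 (interval −0.40 to 0.54).

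**Figure D2:**
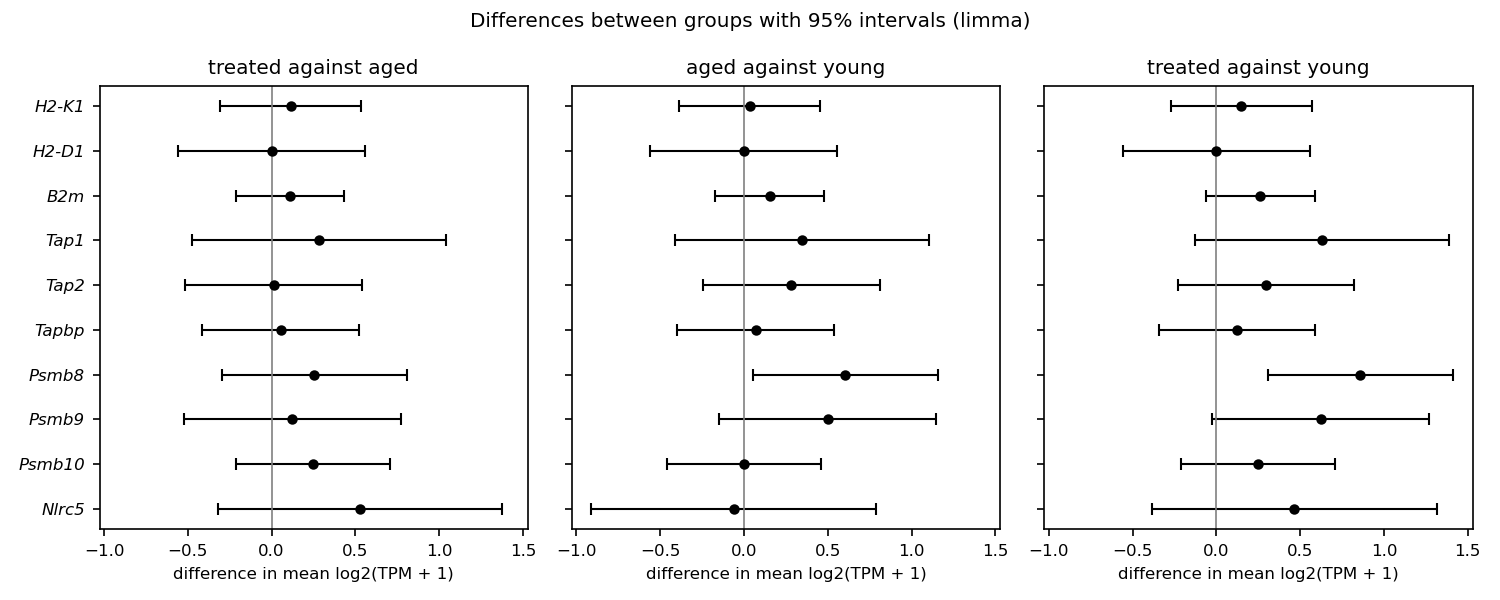
Difference between groups in mean log2(TPM + 1) for each of the 10 genes (horizontal axis), with points for the estimate and bars for the limma 95% interval, in one panel per comparison. Only the intervals of Psmb8 in the panels for aged against young and treated against young livers leave out 0, and neither passes after adjustment over all genes.

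Psmb8 had the largest differences from young livers of the 10 genes. It encodes LMP7, the immunoproteasome subunit with chymotrypsin-like activity. It stood at 47.2, 118, 95.2, 88.9 and 105 TPM in treated libraries, at 58.2, 66.7, 65.7, 60.4 and 131 TPM in aged libraries and at 55.3, 40.0, 54.5, 33.0 and 60.3 TPM in young libraries. Treated libraries 2 to 5 and aged 2, 3, 4 and 5 exceeded every young library, while treated 1 and aged 1 lay inside the young range. The log2 difference was 0.86 between treated and young livers (SE 0.26, interval 0.31 to 1.41, limma adjusted p = 0.0892), 0.60 between aged and young livers (interval 0.05 to 1.16, adjusted p = 0.495) and 0.26 between treated and aged livers (interval −0.30 to 0.81, adjusted p = 0.925). The difference between treated and young livers passed in some alternatives. These were without treated 1 (1.08, limma adjusted p = 0.015), without aged 5 (0.86, 0.043), with quantile normalization (0.85, 0.0414), with median-ratio scaling (0.80, 0.0469) and with library weights (0.95, 0.0101). It also passed without treated 1, aged 5 and young 4 together (0.95, 0.0016), an alternative added once the data had been seen. Over all alternatives the limma adjusted p ranged from that value to 0.23.

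Psmb9 and Psmb10, the other immunoproteasome subunits, overlapped between the groups. Psmb9 encodes LMP2 and stood at 18.5, 65.6, 41.8, 38.1 and 42.4 TPM in treated libraries, at 26.9, 28.9, 38.8, 27.4 and 64.7 TPM in aged libraries and at 32.6, 21.5, 20.4, 17.7 and 35.3 TPM in young libraries. Its log2 difference was 0.62 between treated and young livers (interval −0.03 to 1.27, limma adjusted p = 0.301) and 0.50 between aged and young livers (−0.15 to 1.15). Psmb10, which encodes MECL-1, averaged 67.3 ± 18.2 TPM in treated, 55.7 ± 13.6 TPM in aged and 55.4 ± 11.003 TPM in young livers (SD, n = 5 each), and its aged and young means differed by 0.00 on the log2 scale (interval −0.46 to 0.46).

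Relative to the subunit it replaces, Psmb8 was higher in aged and in treated livers than in young livers. The share of Psmb8 in the sum of Psmb8 and Psmb5 was 34.4%, 47.9%, 39.5%, 39.7% and 40.0% in treated libraries, 32.0%, 34.3%, 30.9%, 32.6% and 48.4% in aged libraries and 26.4%, 23.2%, 27.4%, 17.3% and 27.1% in young libraries. Every treated and every aged library lay above every young library. This share does not depend on how a library was scaled, since both genes come from it. On the log2 ratio of Psmb8 to Psmb5, treated livers exceeded young livers by 1.07 and aged livers exceeded young livers by 0.78, each with p = 0.00794 in a two-sided exact permutation test, the smallest p that 5 against 5 libraries allow, and an adjusted p of 0.0357 over the 9 ratios tested. Treated and aged livers differed by 0.29 (exact permutation p = 0.262, adjusted p = 0.471). Psmb5 itself stood at 131 ± 25.7 TPM in treated, 133 ± 10.4 TPM in aged and 150.3 ± 12.3 TPM in young livers (SD, n = 5 each). It did not pass (log2 difference −0.21 between treated and young livers, limma adjusted p = 0.465, and −0.18 between aged and young livers). Without young 4, which had the lowest share, the adjusted p of both exact permutation tests was 0.0714, with differences of 0.93 and 0.64. The unadjusted exact permutation p was then 0.00794 for treated against young livers, the smallest that 5 against 4 libraries allow. For aged against young livers it was 0.0159. Without aged 5 the ratio was higher in treated than in aged livers by 0.48 (adjusted p = 0.0476 in the exact permutation test), and without treated 1, aged 5 and young 4 together, an alternative added once the data had been seen, aged livers exceeded young livers by 0.45 and treated livers exceeded young livers by 1.02, neither past the threshold (exact permutation p = 0.0286, the smallest that 4 against 4 libraries allow, adjusted p = 0.0514).

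The other pairs did not pass. The share of Psmb9 in the sum of Psmb9 and Psmb6 averaged 14.5 ± 4.40% in treated, 13.4 ± 4.33% in aged and 9.12 ± 2.84% in young livers (mean ± SD of 5 libraries a group), and the log2 ratio was higher by 0.75 in treated than in young livers (exact permutation p = 0.0397, adjusted p = 0.119) and by 0.62 in aged than in young livers (exact permutation p = 0.0794, adjusted p = 0.179). The share of Psmb10 in the sum of Psmb10 and Psmb7 averaged 36.1 ± 6.58% in treated, 34.0 ± 5.27% in aged and 32.4 ± 5.82% in young livers. That the Psmb8 ratio differed more than the other ratios was not tested.

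**Figure D3:**
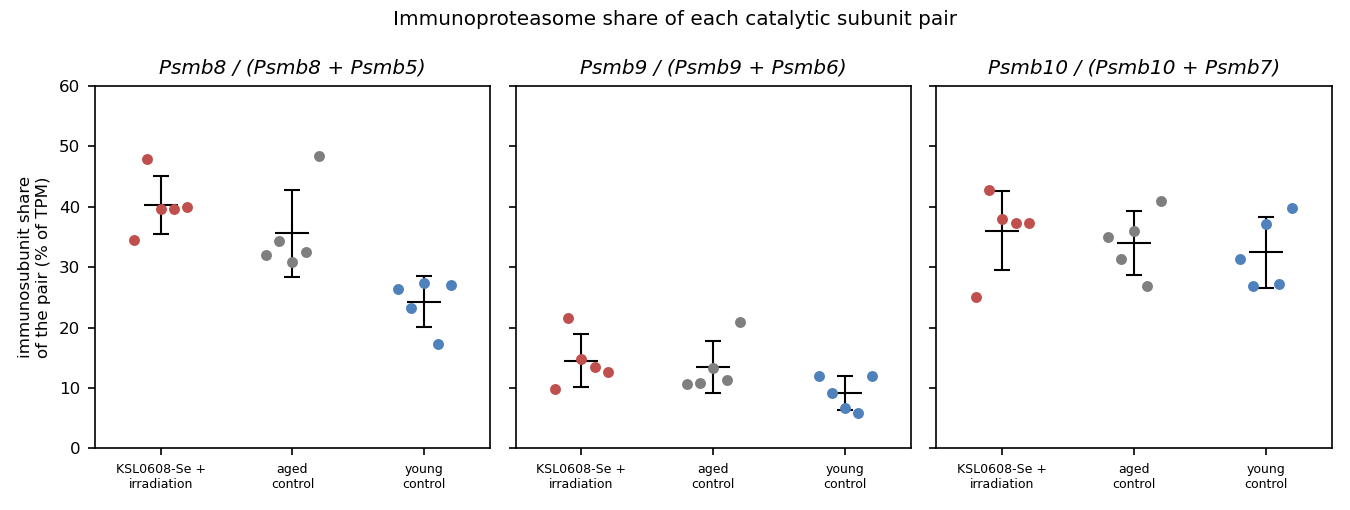
Share of each immunoproteasome subunit in the summed TPM of it and its constitutive counterpart (vertical axis, percent) in every library, with points for libraries 1 to 5 from left to right and black bars for the mean and SD. For Psmb8 the treated libraries (34.4% to 47.9%) and the aged libraries (30.9% to 48.4%) all lie above the young ones (17.3% to 27.4%), while the groups overlap for Psmb9 and Psmb10.

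Summed markers of immune cells also reached higher levels in treated and aged livers than in young livers, and hepatocyte markers had lower means. Both thus differed between the same groups as the Psmb8 share, and whether they followed it from library to library was not tested. Fewer cells of a type and less RNA per cell cannot be told apart in these bulk libraries. Summed over 19 T and NK cell markers, of which 14 were tested, the level was 17.6 to 169 TPM in treated livers, 25.1 to 385 TPM in aged livers and 15.4 to 24.7 TPM in young livers. Of the 14, 1 was called higher between treated and young livers and 0 between aged and young livers, where 2.18% and 0.929% of all genes were called higher, the shares against which the other marker counts can be read. Summed over 10 genes of MHC class II presentation, 7 of them tested and 0 called, it was 291 to 1310 TPM in treated, 401 to 2223 TPM in aged and 179 to 479 TPM in young livers. Kupffer cell markers, the resident macrophages, summed to 422 to 2238 TPM in treated, 599 to 1059 TPM in aged and 229 to 645 TPM in young livers, with 2 of 8 called higher between treated and young livers. Monocyte and macrophage markers (11 of 12 tested) summed to 185 to 1001 TPM in treated, 242 to 720 TPM in aged and 56.7 to 175 TPM in young livers, with 3 of 11 called higher in treated and 1 of 11 in aged livers against young livers. B and plasma cell markers summed to 444 to 5292 TPM in treated, 546 to 5192 TPM in aged and 82.1 to 139 TPM in young livers, with 3 of 11 called higher in each comparison with young livers. Neutrophil markers (5 of 8 tested) summed to 12.8 to 101 TPM in treated, 14.8 to 26.3 TPM in aged and 6.8 to 19.1 TPM in young livers, with 1 of 5 called higher between treated and young livers. Of the 10 hepatocyte markers, 9 had lower means in treated than in young livers (median log2 difference −0.38) and 9 in aged than in young livers (−0.23), and 1, the cytochrome P450 gene Cyp2e1, fell by 1.32 on the log2 scale between treated and young livers (limma adjusted p = 0.00976), where 0.731% of all genes were called lower. Of 8 sinusoidal endothelial markers, 4 had higher means in aged than in young livers (median log2 difference −0.01). In treated livers 5 had higher means than in young livers (0.06), and 0 were called in either comparison. The stellate cell and bile duct lists also had 0 called. No marker of these lists was at 0 in all 15 libraries. In treated 1 the T and NK cell sum of 17.6 TPM and the class II sum of 291 TPM lay inside the young ranges. The class II sums of aged 1 (401 TPM) and aged 4 (436 TPM) did too, while their T and NK cell sums, 25.1 and 28.1 TPM, were above the young range. The Psmb8 shares of these 3 libraries were 34.4%, 32.0% and 32.6%, above the highest young value of 27.4%. The sums of B and plasma cell markers and of monocyte and macrophage markers were above the young range in these 3 libraries. The part of any cell type in the Psmb8 share was not tested.

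Nlrc5 was low and spread widely among treated libraries. It stood at 1.73, 16.6, 11.3, 4.98 and 4.78 TPM in treated libraries, at 1.99, 3.45, 5.53, 3.62 and 7.18 TPM in aged libraries and at 5.39, 3.93, 4.26, 5.08 and 3.03 TPM in young libraries. Treated 2 and treated 3 were above all other libraries and treated 1 below all. The highest treated library was 9.62-fold above the lowest, against 3.61-fold in aged and 1.78-fold in young livers. The log2 difference was 0.53 between treated and aged livers (interval −0.32 to 1.38, limma adjusted p = 0.925) and −0.06 between aged and young livers (−0.91 to 0.79). Leaving out 1 library, the difference between treated and aged livers ranged from 0.21 to 0.88.

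The 10 genes ran together from library to library within the groups, apart from B2m. After subtracting group means, Pearson's r over the 15 libraries was above 0 for 44 of the 45 pairs, with a median of 0.78. Points of all pairs share the same libraries and their scaling, and these values are descriptions. Psmb9 and Tap1, the head-to-head neighbours, had the highest value, 0.96, followed by Tap1 with Psmb8 at 0.95 and Tap2 with Tapbp at 0.93. Without subtracting group means, Psmb9 and Tap1 had Pearson's r of 0.95 and Spearman's rho of 0.92, and r was 0.91 without treated 2 and aged 5, the libraries farthest from the median of Psmb9. B2m stood apart from the transporter, with r of −0.02 with Tapbp and 0.01 with Tap2, and it ran with H2-K1 (0.72) and Nlrc5 (0.67). Young 4 had the highest B2m level of all 15 libraries and the lowest levels of Tap1, Tap2, Tapbp, Psmb8 and Psmb9. Across all genes young 4 also had the lowest median r with its own group, 0.923, against 0.953 to 0.965 in the other young libraries, and aged 5 had the lowest in its group (0.935).

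**Figure D4:**
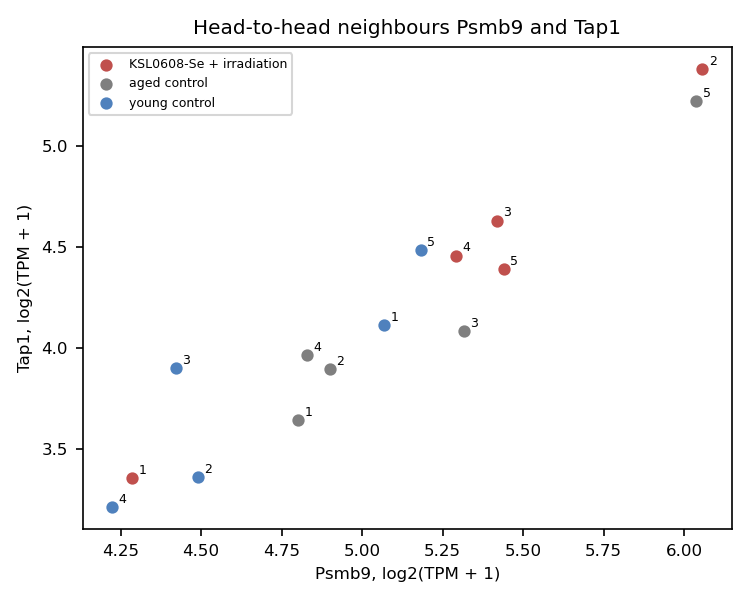
Level of Tap1 (vertical axis) against that of Psmb9 (horizontal axis), both as log2(TPM + 1), with 1 point per library, coloured by group and labelled by library number. Treated 2 and aged 5 lie at the upper end and treated 1 and young 4 at the lower end, with Pearson's r of 0.95 over the 15 libraries.

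**Figure D5:**
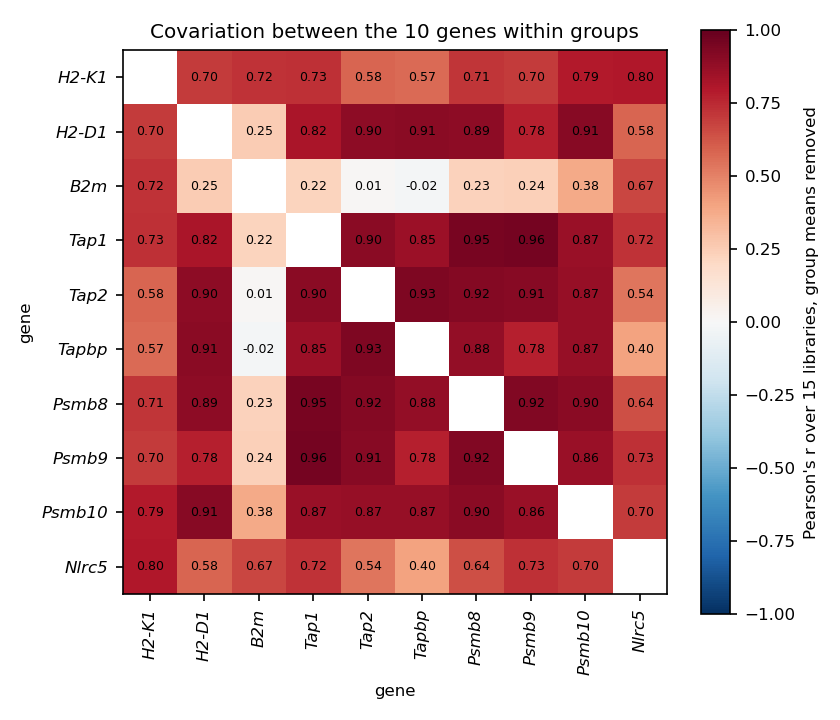
Pearson's r between each pair of the 10 genes over the 15 libraries, on log2(TPM + 1) after subtracting group means, with red for positive values and the value written in each cell. B2m forms a pale row, with values from −0.02 to 0.72, and Psmb9 with Tap1 is the darkest cell at 0.96.

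Some genes outside the 10 followed their mean closely from library to library. Likeness was Pearson's r over the 15 libraries with the mean z-score of the 10 genes, ranked over the 12158 other tested genes, and it is a description, since all points share libraries and scaling. Among the highest were Arhgap4 (0.94), H2-Q4 (0.93), a nonclassical class I gene, Trpm2 (0.93), a cation channel gene, H2-Q7 (0.93), which encodes the class I molecule Qa-2, Rfc2 (0.92), a subunit gene of the DNA clamp loader, Ptpn18 (0.92), a tyrosine phosphatase gene, and Pitpnm1 (0.91), a phosphatidylinositol transfer protein gene. After subtracting group means, r was 0.93 for Arhgap4, 0.93 for H2-Q4, 0.94 for Trpm2, 0.95 for H2-Q7, 0.94 for Rfc2, 0.95 for Ptpn18 and 0.94 for Pitpnm1. H2-Q4 shares transcript stretches with H2-K1, and H2-Q7 with both H2-K1 and H2-D1. Part of the likeness of H2-Q4 and H2-Q7 can therefore come from shared reads, which was not tested. Over all tested genes the median r was 0.27, and 0.32 after subtracting group means.

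Signals and factors that act on class I genes did not pass in any comparison (0 of 22 tested of 24 listed, limma). Ifng, which encodes interferon-gamma, was under the filter, at no more than 0.17 TPM in treated, 0.54 TPM in aged and 0.09 TPM in young libraries. Irf1, the factor that binds interferon elements in class I promoters, averaged 30.3 ± 8.28 TPM in treated, 30.0 ± 10.1 TPM in aged and 19.7 ± 5.86 TPM in young livers (SD, n = 5 each), with log2 differences of 0.61 between treated and young livers (limma adjusted p = 0.21) and 0.58 between aged and young livers (0.502). Rfx5, a subunit of the complex that recruits Nlrc5 to X boxes, averaged 3.37 TPM in treated, 3.78 TPM in aged and 2.99 TPM in young livers. The smallest p of this list between treated and aged livers belonged to Stat2 (log2 difference 0.38) and Jak2 (log2 difference 0.22), and the log2 difference of Nfyb between treated and young livers was 0.49. Irf8 differed by 0.85 between aged and young livers, with aged 5 at 31.9 TPM, the other aged libraries at 4.62 to 6.0 TPM and the young libraries at 1.49 to 5.99 TPM, so the difference rests largely on aged 5. The median log2 difference of the list was −0.01, 0.14 and 0.17 for treated against aged, aged against young and treated against young livers.

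Of the interferon-stimulated genes, 2 were called higher in treated than in young livers. All 23 tested genes of the 24 listed had higher means in treated than in aged livers, as 49.7% of all genes did, with a median of 0.49. None was called, and 6 had an unadjusted limma p under 0.05, as 4.41% of all genes did. Between aged and young livers 12 of 23 had higher means (median 0.00), beside 59.2% of all genes. The genes share the same libraries, so these counts are not independent. The list summed to 1359 TPM in treated 2 but 474 TPM in treated 1, inside the aged range of 472 to 672 TPM. Between treated and young livers 21 of 23 had higher means (median 0.56), beside 57.4% of all genes. In that comparison 2 of 23 were called, both higher, beside 2.18% of all genes called higher. An unadjusted limma p under 0.05 was reached by 9 of 23, as by 17.8% of all genes. Rtp4, which encodes a chaperone protein induced by interferon, stood at 17.4, 38.0, 27.1, 18.1 and 31.4 TPM in treated libraries, at 15.1, 12.3, 20.1, 15.8 and 17.6 TPM in aged libraries and at 17.6, 10.6, 10.0, 8.06 and 11.4 TPM in young libraries. It rose by 1.11 on the log2 scale between treated and young livers (SE 0.23, limma adjusted p = 0.0138). Gbp3, a guanylate-binding protein gene, averaged 8.85 ± 4.30 TPM in treated, 3.93 ± 0.955 TPM in aged and 3.15 ± 1.40 TPM in young livers (SD, n = 5 each) and rose by 1.20 between treated and young livers (limma adjusted p = 0.0263). The Rtp4 call held in all 25 alternatives, while the Gbp3 call ended without treated 2, treated 5, young 3 or young 5, without a filter and in the fit of those groups alone (highest adjusted p 0.0815). The smallest p of the list between aged and young livers belonged to Usp18, which stood at 5.24 TPM in aged and 10.7 TPM in young livers (limma adjusted p = 0.445).

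Of 18 class I and class I-like genes outside the 10, 15 were tested and 1 was called higher, between treated and young livers, where 2.18% of all genes were. This was Mr1, which encodes the molecule that presents vitamin B metabolites to MAIT cells. It stood at 5.81, 5.66, 5.83, 3.51 and 3.86 TPM in treated libraries, at 4.75, 3.39, 3.8, 6.08 and 3.48 TPM in aged libraries and at 3.33, 3.06, 1.80, 1.74 and 2.00 TPM in young libraries. Treated and aged libraries were all above the young ones. Mr1 rose by 0.81 on the log2 scale between treated and young livers (SE 0.20, limma adjusted p = 0.0342), and the difference between aged and young livers was 0.65 (adjusted p = 0.176). The Mr1 call ended in 9 of the 24 alternatives that tested it (highest adjusted p 0.0984), 5 of which left out a single library. H2-Q10, the class I molecule that hepatocytes secrete, averaged 1592 ± 75.6 TPM in treated, 1722 ± 61.0 TPM in aged and 1788 ± 154 TPM in young livers. Its log2 difference was −0.16 between treated and young livers (limma adjusted p = 0.441) and −0.11 between treated and aged livers. H2-K2 and Fcgrt had the smallest p of the list between treated and aged livers, with log2 differences of 0.55 and −0.22, and H2-Q1 differed by 0.55 between aged and young livers.

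Genes that load, trim or supply peptides did not pass in any comparison (0 of 10, limma), nor did the constitutive core proteasome genes (0 of 14). The smallest p between treated and aged livers belonged to Pomp, a proteasome assembly factor gene (log2 difference 0.36), and Pdia3, a disulfide isomerase gene of the loading complex (0.44). Psme1, a subunit of the proteasome activator, had a log2 difference of 0.40 between treated and young livers (limma adjusted p = 0.258), and Tapbpl, a tapasin relative, 0.36 against young livers in treated livers and 0.34 in aged livers. Among the core proteasome genes Psma3 and Psma4 differed by 0.43 and 0.34 between treated and aged livers, Psmb4 and Psmb3 by −0.21 and −0.19 between aged and young livers, and Psma3 and Psma2 by 0.45 and 0.38 between treated and young livers. Psmb6 averaged 237 TPM in treated, 235 TPM in aged and 256 TPM in young livers, and Psmb7 averaged 117, 107 and 115 TPM in the same groups.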

How the data were processed

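RNA was measured in 15 mouse liver libraries, 5 in each of 3 groups taken from the sample titles. The submitters' processing notes name fastp, HISAT and RSEM and the build GRCm39, without versions, roles or order. The deposited values are TPM, scaled by the authors within each library and given to 2 decimals, and the 15 libraries sum to between 999999.18 and 1000000.82. TPM keeps no read depth, so precision was judged from the spread between libraries.

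Values were analysed as log2(TPM + 1) for the 12168 genes whose mean over the libraries reached 1 TPM, in 1 model over the 3 groups with limma 3.58.1 in R 4.3.3 (trend and robust variance estimation). Benjamini-Hochberg adjustment ran over the 12168 genes. Log2 ratios of catalytic subunits, each as TPM + 1, were compared by exact permutation of library labels. The limma fit was tested on simulated data, and the permutation test on separate and identical groups. Genes were named by rule, namely the 10 genes always, called list members or else those with the smallest p, and a few fixed regulators, 1 of which is not reported here. The 10 genes, the lists and the subunit ratios were chosen with earlier results of these data known. Alternatives changed the pseudocount (0.1 or 5), filter (none or 5 TPM), scaling, library weights, groups fitted and replicate block, and left out libraries. Columns of group means were not used.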

Additional observations from a re-analysis of the deposited data

Results flagged for a closer look

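Of 39 groups of 5 libraries checked over the 10 genes and 3 subunit ratios, 7 held 1 library far from the others, where chance gives about 1 in 20. The genes run together, so these are not independent. Treated 1 was low for H2-D1 (8.29 on the log2(TPM + 1) scale, others 9.48 to 9.64), Tap2 (3.65, others 4.54 to 4.69) and Tapbp (5.57, others 6.14 to 6.36), and for the log2 ratio of Psmb10 to Psmb7 (−1.56, others −0.74 to −0.41). Aged 5 was high for Tap1 (5.22 on the log2(TPM + 1) scale, others 3.64 to 4.08), Psmb8 (7.04, others 5.89 to 6.08) and the log2 ratio of Psmb8 to Psmb5 (−0.0945, others −1.15 to −0.93). T and NK cell markers summed to 17.6 TPM in treated 1, the lowest treated value, and 385 TPM in aged 5, the highest of all libraries, and their part in these values was not tested.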

How the results depend on the processing

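Of 750 differences of the 10 genes over all alternatives, 692 kept their direction and their side of the threshold, 9 passed, all between treated and young livers, and 49 changed sign. Besides Psmb8, those that passed were B2m with library weights (0.41, limma adjusted p = 0.0323) and without treated 1, aged 5 and young 4 together (0.46, 0.0257), and Psmb9 without those 3 libraries (0.76, 0.0366). The cause was not tested for any of these changes.

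Sign changes between aged and young livers were H2-K1 at −0.0351 with quantile normalization and −0.0280 with median-ratio scaling, and, without the 3 libraries, Tap1 at −0.0684, Tap2 at −0.0395, Tapbp at −0.206 and the log2 ratio of Psmb10 to Psmb7 at −0.0892. H2-D1 was at −0.00103 between treated and aged livers with median-ratio scaling. Between treated and young livers it was at 0.000254 with a pseudocount of 5, 0.0770 with library weights and 0.106 without the 3 libraries.

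Between treated and young livers, 354 genes were called, against 188 with no filter, 217 with a filter of 5 TPM, 574 with quantile normalization, 598 with median-ratio scaling, 1538 with library weights and 1458 without the 3 libraries. Between aged and young livers, 132 were called, against 76 with the filter of 5 TPM and 244 with library weights, and between treated and aged livers 1, against 0 with the filter of 5 TPM (280 at an unadjusted p under 0.05). Higher and lower calls split 265 to 89 between treated and young livers, while 322 of the 574 with quantile normalization and 242 of the 598 with median-ratio scaling were lower, and 113 to 19 between aged and young livers, against 78 to 41 with quantile normalization and 96 to 33 with median-ratio scaling. Of the 10 genes, 1 was called between treated and young livers with quantile normalization, 1 with median-ratio scaling, 2 with library weights and 3 without the 3 libraries. Of the pathway lists, 3 genes were called there, against 1 with no filter, 1 in the fit of those groups alone, 13 with library weights and 13 without the 3 libraries. The log2 ratio of Psmb8 to Psmb5 did not pass without the 3 libraries, at 0.445 for aged and 1.02 for treated against young livers.

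Leaving out single libraries, genes called ranged from 1 to 2 for treated against aged, 79 to 165 for aged against young and 183 to 1192 for treated against young livers, the last without young 4. For treated against young livers, 0 to 1 of the 10 genes and 1 to 7 pathway genes were called. The Psmb8 to Psmb5 ratio ranged from 0.182 to 0.483 for treated against aged, 0.592 to 0.856 for aged against young and 0.928 to 1.16 for treated against young livers. Differences that changed sign for treated against aged livers ranged from −0.104 to 0.252 for H2-D1, −0.0668 to 0.201 for Tap2, −0.00820 to 0.189 for Tapbp, −0.0677 to 0.375 for Psmb9 and −0.0579 to 0.326 for the Psmb9 to Psmb6 ratio. For aged against young livers they ranged from −0.146 to 0.121 for H2-D1, −0.0566 to 0.0937 for H2-K1, −0.0925 to 0.211 for Tapbp, −0.111 to 0.0882 for Psmb10, −0.235 to 0.128 for Nlrc5 and −0.00311 to 0.223 for the Psmb10 to Psmb7 ratio. For treated against young livers they ranged from −0.144 to 0.250 for H2-D1 and −0.0386 to 0.265 for Tapbp. Without treated 1 the median of all genes between treated and young livers shifted to 0.11.

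Libraries with the same replicate number deviated together little (median r of 0.0215, from −0.249 to 0.309 over 15 pairs). For unlike numbers the median r was −0.0189, from −0.363 to 0.304 over 60 pairs. Weak correlation cannot exclude a pairing, and the labels do not say whether the numbers pair libraries. With the replicate number as a block, 1, 116 and 373 genes were called for treated against aged, aged against young and treated against young livers, and none of the 10 genes. Under the block the Psmb8 to Psmb5 ratio differed by 0.782 for aged and 1.07 for treated against young livers with an adjusted p of 0.281 each, in an exact permutation test that cannot go below an unadjusted p of 0.0625. TPM gives no depth, so no limit of detection could be set.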
